A study of Mus musculus with 30 samples.

Results

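Purinergic and adenosine signalling was described here through 10 genes: the nucleotide receptors P2ry12, P2ry13, P2ry6, P2ry14, P2rx4 and P2rx7, the ectonucleotidase Entpd1 and the adenosine receptors Adora2a, Adora2b and Adora3. Members were found by gene symbol in the array annotation, with the brightest row where a gene had several. The list of members was set with earlier results of these data known. Of the 10 genes, 6 had a row, each of them exactly 1, among 22103 rows for 19479 named genes. P2ry14, Adora2a, Adora2b and Adora3 were not analysed here, so the values describe the nucleotide side of the pathway and no adenosine receptor.

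Extracellular ATP, ADP, UTP and UDP leave stressed or damaged cells and act on neighbouring cells through P2Y receptors, which couple to G proteins, and P2X receptors, which are ion channels opened by ATP. Ectonucleotidases on the cell surface break the nucleotides down, and the last step yields adenosine, which acts on receptors of its own. In the brain this system is known for directing microglial processes to sites of injury, for starting uptake of debris and, through P2X7, for release of interleukin-1.

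The cells came from the ischemic hemisphere of male C57BL/6 mice aged 8 to 10 weeks, either TREM1+/+ (wild type, WT) or TREM1-/- (knockout, KO). TREM1 is a receptor of myeloid cells that amplifies inflammatory signalling. Every mouse had the middle cerebral artery occluded for 45 min, a stroke model, and cells were sorted 48 h into reperfusion. No group without stroke is among the arrays, so all levels are those of cells after ischemia. Neutrophils were the CD45 high, CD11b positive, Ly6G positive cells and macrophages the CD45 high, CD11b positive, Ly6G negative cells. Microglia were the CD45 low, CD11b positive cells, and the labels write their gate as Ly6G positive as well. The 30 arrays held 4 WT and 5 KO neutrophil samples, 3 WT and 6 KO macrophage samples, and 6 WT and 6 KO microglia samples. The labels name them biological replicates and do not say whether a sample pools animals, so p-values measure the spread between these samples.

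Levels are log2 intensities, on which a step of 1 is a doubling, and they can be compared between samples for a gene but not between genes. Median intensity per array was 83.7 to 120, and the WT neutrophil arrays stood apart, with mean correlations to their own group of 0.933 to 0.962 against 0.974 to 0.988 elsewhere. Trem1, the targeted gene, was at 17.20 ± 0.29 (SD, n = 4) in WT and 15.98 ± 0.51 (n = 5) in KO neutrophils. Its fall of 1.22 passed (limma adjusted p = 0.0361), while in KO macrophages Trem1 differed by -0.49 (adjusted p = 0.998) and in KO microglia by -1.25 (adjusted p = 0.99987), and neither passed. The probes may lie outside the deleted part and so check nothing. The sorts carried their markers: 9 measured neutrophil markers averaged 13.04 to 16.37 on neutrophil arrays and 6.26 to 9.74 elsewhere, and 9 microglia markers averaged 13.58 to 14.88 on microglia arrays and 7.31 to 9.96 elsewhere. KO microglia 2 and 4 had the highest neutrophil marker means of the microglia arrays, 9.74 and 7.68.

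Several members are neighbours in the mouse genome (GRCm38.p6, RefSeq). P2ry13 lies at chr3:59207892-59210882 and P2ry12 at chr3:59216271-59262985, 5388 bases apart and both inside the span of Med12l, a Mediator subunit gene at chr3:59005419-59318446. P2rx7 lies at chr5:122643927-122692336 and P2rx4 at chr5:122707518-122729739, 15181 bases apart, and P2rx4 overlaps the kinase gene Camkk2. P2ry6 lies at chr7:100937630-100975498 and Entpd1 at chr19:40612366-40741602. The array gives 1 value per gene and the table does not say which exons its probes cover.

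The promoters of both neighbouring P2Y genes are shown because their levels moved together among microglia arrays and differed in opposite directions between WT neutrophils and WT microglia, and that of P2rx7 because it is the channel gene of its pair with a match. The windows are the 250 bases before the gene start in RefSeq, GRCm38.p6: chr3:59210883-59211132 on the minus strand for P2ry13, chr3:59262986-59263235 on the minus strand for P2ry12 and chr5:122643677-122643926 on the plus strand for P2rx7. Capitals mark matches to motifs searched on both strands.
P2ry13: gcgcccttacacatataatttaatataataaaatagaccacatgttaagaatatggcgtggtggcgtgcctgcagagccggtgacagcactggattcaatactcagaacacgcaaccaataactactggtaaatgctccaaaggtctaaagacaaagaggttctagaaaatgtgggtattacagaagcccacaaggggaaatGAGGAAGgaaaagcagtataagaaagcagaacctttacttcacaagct
P2ry12: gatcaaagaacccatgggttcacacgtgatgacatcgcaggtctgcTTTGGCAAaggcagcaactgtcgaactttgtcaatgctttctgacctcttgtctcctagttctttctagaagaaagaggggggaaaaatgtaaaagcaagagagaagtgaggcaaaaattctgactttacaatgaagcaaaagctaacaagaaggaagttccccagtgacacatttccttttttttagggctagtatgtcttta
P2rx7: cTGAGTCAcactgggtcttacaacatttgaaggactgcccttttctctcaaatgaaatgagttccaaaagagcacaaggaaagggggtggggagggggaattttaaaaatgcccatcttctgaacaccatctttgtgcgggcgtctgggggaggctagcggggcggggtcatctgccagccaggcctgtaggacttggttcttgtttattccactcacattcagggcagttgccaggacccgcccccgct
The P2ry13 window holds GAGGAAG, searched for PU.1, a factor of myeloid cells, 48 bases before the start, and 10.6% of all 32851 promoter windows hold that motif. The P2ry12 window holds a match on the opposite strand to TTGCNNAA, searched for C/EBP, 204 bases before the start, and 9.56% of windows do. The P2rx7 window holds TGAGTCA, a match to TGANTCA searched for AP-1 that reads the same on both strands, 249 bases before the start, and 6.75% of windows do. The other motifs were that of IRF, in 2.98% of windows, and TGACGTCA for CRE, in 1.55%. None of the 5 motifs was in the P2rx4 window or in the further P2rx7 window, and GAGGAAG was in 1 of the Entpd1 windows, 227 bases before its start. The table had windows for 5 of the 6 measured members. These matches describe letters in a window and say nothing of binding.

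P2ry12 encodes the ADP receptor of microglial processes and of platelets. Its level was highest in microglia, from 15.31 through a median of 15.65 to 16.53 in WT and from 15.21 through 15.71 to 16.41 in KO. The 4 WT neutrophil arrays gave 13.21, 13.88, 13.87 and 13.68, and the 5 KO neutrophil arrays 11.78, 13.12, 12.51, 12.61 and 13.41. The 3 WT macrophage arrays gave 12.48, 12.34 and 12.49, and the 6 KO macrophage arrays ran from 11.98 through 12.15 to 12.75. No neutrophil or macrophage array reached the lowest microglia array, and the neutrophil groups of both genotypes overlapped.

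P2ry13, a second ADP receptor, had another order, with WT neutrophils at the top. They gave 13.94, 15.87, 15.35 and 14.95, and KO neutrophils 12.80, 14.11, 13.15, 14.30 and 14.38. Microglia ran from 12.37 through 13.38 to 14.64 in WT and from 12.77 through 13.50 to 14.30 in KO. Macrophages were lowest, at 10.21, 10.61 and 10.38 in WT and from 9.81 through 10.08 to 10.38 in KO. Every macrophage array lay below every neutrophil and microglia array, while KO neutrophils and KO microglia overlapped.

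P2ry6 encodes the UDP receptor tied to phagocytosis by microglia. Macrophages and microglia had similar levels, at 12.58, 12.92 and 13.31 in WT macrophages, 13.29 through 13.46 to 13.56 in KO macrophages, 12.75 through 13.61 to 13.74 in WT microglia and 13.14 through 13.38 to 13.85 in KO microglia. WT neutrophils were lowest, at 11.34, 11.17, 10.81 and 9.72, and KO neutrophils gave 12.15, 11.94, 11.95, 11.99 and 11.54. The neutrophil groups did not overlap, and all 9 neutrophil arrays lay below the macrophage and microglia arrays.

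P2rx4 encodes an ATP-gated channel that is largely held in lysosomes. WT neutrophils spread widely, at 8.38, 6.95, 5.67 and 8.54, and KO neutrophils gave 10.22, 9.84, 9.63, 10.54 and 8.09. WT macrophages gave 11.05, 11.70 and 11.73, and KO macrophages ran from 10.43 through 10.82 to 11.81. Microglia ran from 9.99 through 10.56 to 12.03 in WT and from 9.63 through 10.76 to 11.74 in KO. The lowest KO neutrophil array lay among the WT neutrophil arrays, and the highest ones reached the low end of macrophages and microglia.

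P2rx7 encodes the ATP-gated channel known for activating the inflammasome. Its levels were highest in microglia, from 9.68 through 9.87 to 10.97 in WT and from 9.93 through 10.31 to 10.51 in KO. Macrophages gave 8.10, 8.63 and 8.22 in WT and ran from 7.81 through 8.24 to 8.48 in KO. WT neutrophils gave 7.68, 5.60, 5.81 and 5.36, and KO neutrophils 7.84, 7.40, 8.17, 7.91 and 6.47. The WT neutrophil mean was 6.11 ± 1.06 (SD, n = 4), with WT neutrophil 1 well above the other 3 arrays. Background per array was not used here, so it is not known how much of such low levels is signal of the gene.

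Entpd1, or CD39, encodes the enzyme that turns extracellular ATP and ADP into AMP. Its arrays overlapped in all 3 cell types. WT neutrophils gave 13.49, 14.54, 14.17 and 12.56, and KO neutrophils 12.39, 12.53, 12.45, 12.80 and 12.99. WT macrophages gave 13.66, 12.49 and 11.48, and KO macrophages ran from 11.90 through 12.53 to 12.89. Microglia ran from 10.47 through 12.05 to 13.51 in WT and from 11.16 through 11.93 to 13.64 in KO, a spread of over 2 log2 units within each genotype.

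**Figure D1:**
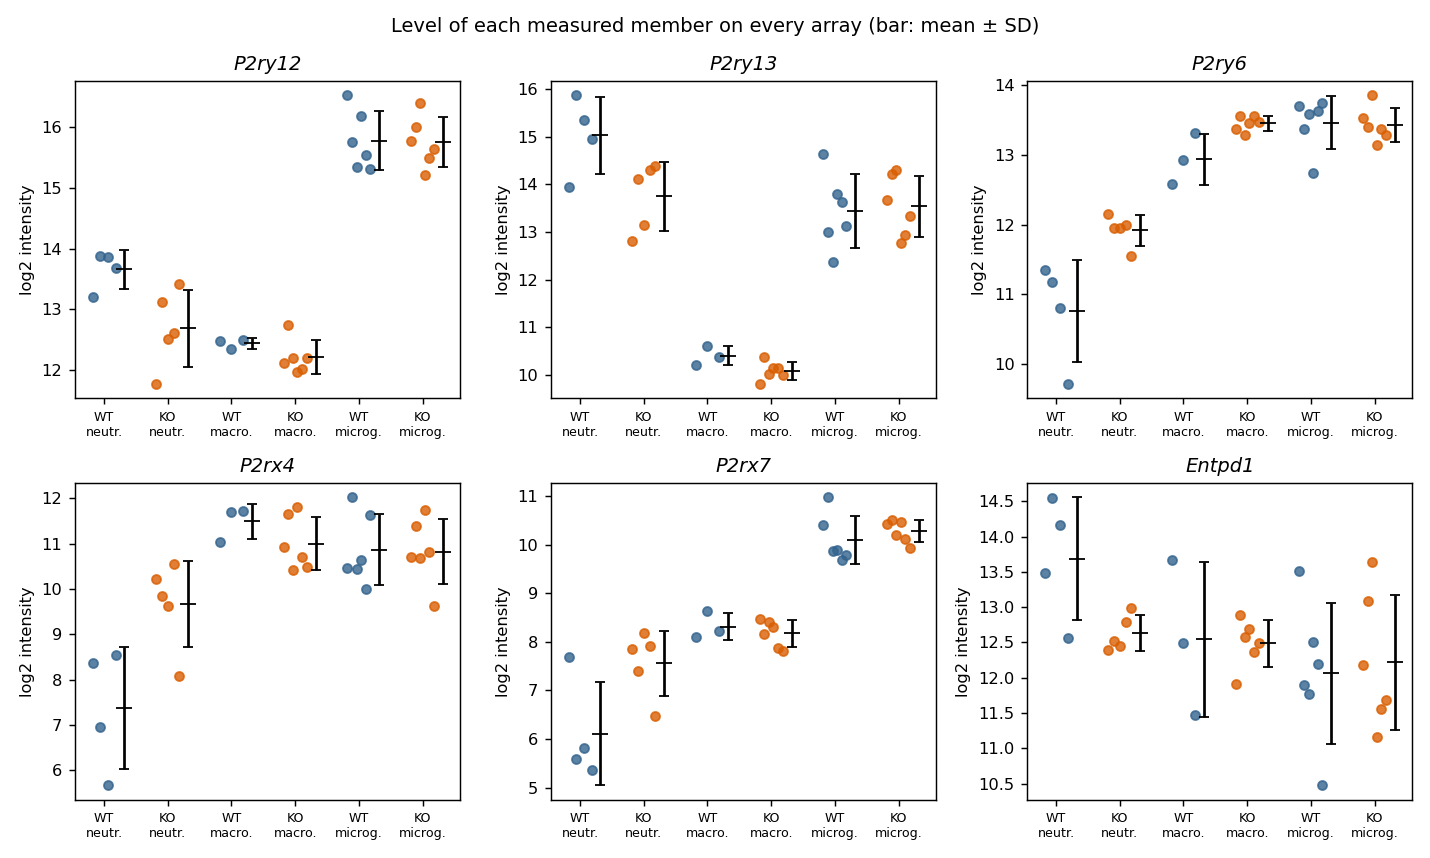
Each panel plots 1 gene, with log2 intensity per array on the vertical axis and the 6 groups on the horizontal axis (neutr., neutrophils; macro., macrophages; microg., microglia); points are arrays, and bars give the mean ± SD. P2ry12 and P2rx7 are highest in microglia, P2ry13 is lowest in macrophages, and P2rx4 spreads from 5.67 to 8.54 over the 4 WT neutrophil arrays.

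The comparison of WT cell types asks how the receptors are distributed over the myeloid cells of the injured hemisphere. Between WT neutrophils and WT microglia all 6 measured members passed, 2 higher and 4 lower in neutrophils. Of all rows 54.3% passed, 22% higher and 32.3% lower, so a call is common in this comparison. P2rx7 was lower in neutrophils (log2 -3.98, SE 0.34, limma adjusted p = 4.24e-11), as was P2rx4 (-3.49, SE 0.50, adjusted p = 8.87e-07). These are differences of the deposited levels, which were low in WT neutrophils for both genes with no background measured, so no fold is given for either gene against this group. P2ry6 was 6.50-fold lower (-2.70, SE 0.23, adjusted p = 4.83e-11) and P2ry12 4.35-fold lower (-2.12, SE 0.26, adjusted p = 8.14e-08). For these 4 genes the groups did not overlap, as for 35.8% of rows. P2ry13 was 3.02-fold higher in neutrophils (1.60, SE 0.38, adjusted p = 0.000745) and Entpd1 3.09-fold higher (1.63, SE 0.48, adjusted p = 0.00476), with all 4 neutrophil arrays above the microglia mean. P2ry12 and P2ry13, both ADP receptors and neighbours on chromosome 3, thus differed in opposite directions between these cells.

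Between WT macrophages and WT microglia 3 of the 6 measured members passed, all lower in macrophages, where 37.5% of rows passed and 27.9% were lower. P2ry12 was 10.1-fold lower (-3.34, SE 0.29, adjusted p = 1.7e-10), P2ry13 8.16-fold lower (-3.03, SE 0.42, adjusted p = 1.02e-06) and P2rx7 3.44-fold lower (-1.78, SE 0.37, adjusted p = 0.000311). The groups did not overlap for these 3 genes, as for 33.7% of rows. P2ry6 (-0.53, 95% interval -1.04 to -0.01, adjusted p = 0.0992), P2rx4 (0.62, -0.50 to 1.75, 0.389) and Entpd1 (0.48, -0.58 to 1.55, 0.494) did not pass, though P2ry6 did with quantile normalization over all arrays (-0.64, adjusted p = 0.0314), with a replicate block (-0.66, 0.0377) and without WT microglia 4 (-0.67, 0.0294). The ADP receptors and P2X7 therefore separated microglia from macrophages, while for the UDP receptor, P2X4 and CD39 no difference was called.

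Between WT neutrophils and WT macrophages 5 of the 6 passed, against 51.6% of rows. P2ry13 was 24.7-fold higher in neutrophils (4.63, SE 0.45, adjusted p = 3.14e-09) and P2ry12 2.33-fold higher (1.22, SE 0.31, adjusted p = 0.00198), where 29.6% of rows were higher. P2rx4 was lower (-4.11, SE 0.59, adjusted p = 2.39e-06), as was P2rx7 (-2.20, adjusted p = 4.82e-05), and P2ry6 was 4.51-fold lower (-2.17, adjusted p = 2.47e-07), where 22% of rows were lower. Entpd1 did not pass (1.15, 95% interval 0.00 to 2.30, adjusted p = 0.0875). It did with quantile normalization over all arrays (1.51, adjusted p = 0.0354), with array weights (1.82, 0.0130), without WT neutrophil 4 (1.52, 0.0304) and without WT macrophage 1 (1.71, 0.0233), and the lowest difference with 1 array left out was 0.61. Among the microglia markers Sparc (6.13, adjusted p = 6.71e-06), Gpr34 (2.40, 0.000275) and Sall1 (1.28, 0.00139) were also higher in WT neutrophils than in WT macrophages, Cx3cr1 was lower (-1.47, 0.00885), and the other 5 measured did not pass. The part of these markers in the P2ry12 and P2ry13 differences was not tested.

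In KO cells the same 3 genes were lower in macrophages than in microglia. P2ry12 was 11.7-fold lower in KO macrophages (-3.55, SE 0.24, adjusted p = 3.08e-13), P2ry13 was lower too (-3.46, SE 0.34, adjusted p = 1.26e-09) and P2rx7 4.29-fold lower (-2.10, SE 0.30, adjusted p = 1.28e-06). These 3 of 6 members passed among 43.3% of rows, and 31.4% were lower. Between KO neutrophils and KO microglia 4 of 6 passed, all lower, among 45% of rows with 32% lower: P2ry12 (-3.07, adjusted p = 2.7e-11), P2rx7 (-2.71, 3.26e-08), P2ry6 (-1.51, 1.09e-06) and P2rx4 (-1.16, 0.0445). P2ry13 was 0.21 higher (95% interval -0.51 to 0.94, adjusted p = 0.661) and Entpd1 0.41 higher (-0.50 to 1.33, 0.479), and neither passed.

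Between KO neutrophils and KO macrophages 3 of 6 passed among 31.7% of rows. P2ry13 was 12.7-fold higher in neutrophils (3.67, SE 0.36, adjusted p = 4e-09), P2ry6 2.90-fold lower (-1.53, SE 0.21, adjusted p = 2.71e-06) and P2rx4 2.52-fold lower (-1.34, SE 0.47, adjusted p = 0.0299). P2ry12 (0.48, 95% interval -0.03 to 0.98, adjusted p = 0.147), P2rx7 (-0.61, -1.26 to 0.03, 0.140) and Entpd1 (0.14, -0.77 to 1.06, 0.838) did not pass. Both P2rx4 calls of KO neutrophils depended on the setting. The call against KO microglia was lost with quantile normalization over all arrays (-0.78, adjusted p = 0.222), with median centring (-0.89, 0.137) and without KO microglia 2 and 4 together (-0.79, 0.229). It was also lost in 8 of 11 fits that each left out 1 array, those without KO neutrophil 2, 3 or 5 or any 1 of KO microglia 1 to 5, with adjusted p up to 0.189 without KO neutrophil 5. The call against KO macrophages was lost with quantile normalization over all arrays (-1.03, 0.123) and in 4 of 11 such fits, those without KO neutrophil 3 or 5 or KO macrophage 2 or 4, with adjusted p up to 0.136 without KO neutrophil 5. P2ry12 passed against KO macrophages with quantile normalization over all arrays (0.75, 0.0321) and without KO neutrophil 1 (0.70, 0.0261).

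**Figure D2:**
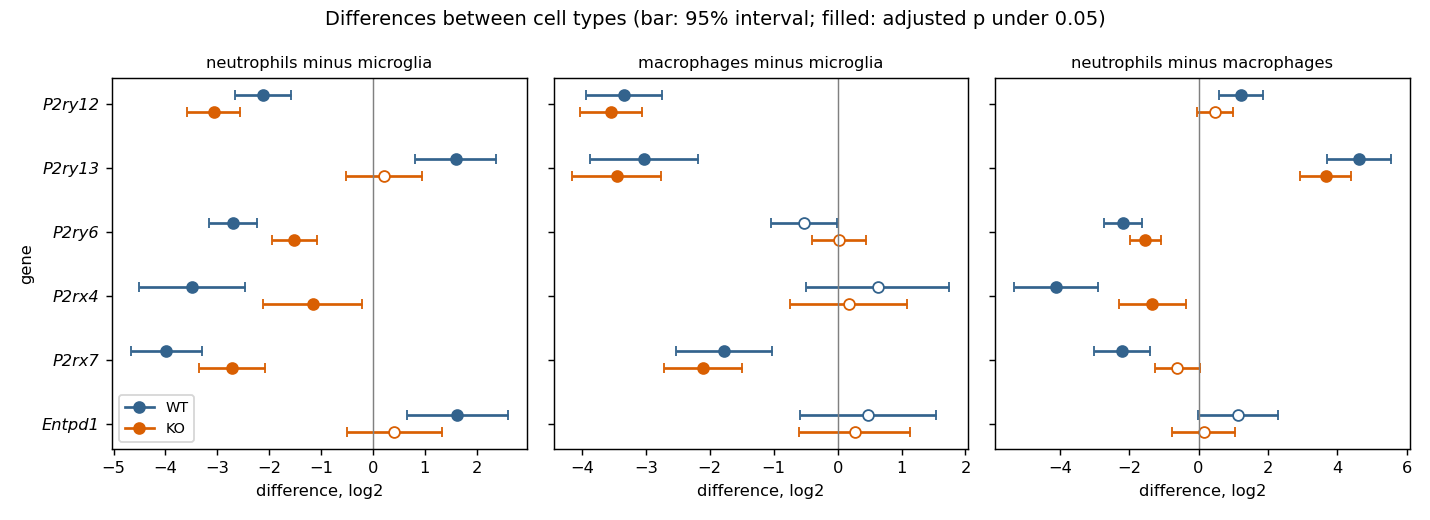
Differences between cell types in log2 units (horizontal axis) for each of the 6 measured genes (vertical axis), in WT and KO cells; points are the fitted differences, bars their 95% intervals, and filled points have an adjusted p under 0.05. P2ry13 lies to the right of 0 against macrophages, at 4.63 in WT and 3.67 in KO, while P2rx4 lies to the left, at -4.11 and -1.34.

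The comparison of genotypes asks what loss of TREM1 changes within a sorted cell type. In neutrophils 5 of the 6 measured members passed, 3 higher and 2 lower in KO, in a comparison where 19.9% of all rows passed, 10.7% higher and 9.14% lower. P2rx4 rose by 2.28 (SE 0.52, adjusted p = 0.00277). P2rx7 rose by 1.45 (SE 0.35, adjusted p = 0.00426) and P2ry6 by 1.15 (SE 0.24, adjusted p = 0.0011). In WT neutrophils P2rx7 averaged 6.11, below 6.69, the median of the mean levels of all rows, and P2rx4 went down to 5.67. Background was not used here, so how much of these low levels is signal of the gene is not known. P2ry13 fell by 1.28 (SE 0.39, adjusted p = 0.0225) and P2ry12 by 0.97 (SE 0.28, adjusted p = 0.0132). Entpd1 was 1.06 lower and did not pass (95% interval -2.07 to -0.05, adjusted p = 0.126). In all 6 genes the WT mean had the 5 KO arrays on 1 side, but among them the groups were separate only for P2ry6, as for 11.4% of rows.

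The P2rx4, P2rx7 and P2ry6 calls were kept whichever of the 9 neutrophil arrays was left out of the fit. The P2ry12 call ended without KO neutrophil 1 (-0.75, adjusted p = 0.0566). The P2ry13 call ended without WT neutrophil 2 (adjusted p = 0.0884), WT neutrophil 3 (0.0647), KO neutrophil 1 (0.0805) or KO neutrophil 3 (0.0615). In a fit on the neutrophil arrays alone none of the 5 passed (adjusted p = 0.0597 to 0.112), and 1084 rows were called in place of 4390. That fit takes the spread from neutrophil arrays only, while the main fit shares it over all groups. The WT neutrophil arrays correlated least with their own group.

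Other measures differed between the neutrophil groups along with these genes. Among 2015 rows that were at 11 or more on every macrophage and microglia array and whose WT means there lay within 1, the median was 12.42 to 12.91 on WT and 12.85 to 13.21 on KO neutrophil arrays, against 13.26 to 13.49 on the other arrays. These rows, called broadly expressed below, were chosen with no condition on the neutrophil arrays. Lower levels on neutrophil arrays than on the others can therefore follow from the choice itself. P2ry6 is itself 1 of these rows. From 20 to 204 of them lay over 3 below their level in the other cells on WT neutrophil arrays and 5 to 24 on KO arrays. With that median as a covariate none of the 5 calls remained: P2rx4 differed by 1.13, P2rx7 by 0.28, P2ry6 by 0.35, P2ry13 by -0.62 and P2ry12 by -0.27 (adjusted p = 0.508 to 0.852), and 474 rows were called. Only KO neutrophil 5, at 12.85, lay within the WT range of that median. The median thus nearly followed genotype on these arrays, and this fit can hardly tell them apart. The part of this measure in the member results was not tested.

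Markers of other cells moved as well. Of 8 monocyte and macrophage markers, averaging 10.24 to 11.69 on WT and 11.23 to 12.07 on KO neutrophil arrays, 3 were higher in KO: Ccr2 (2.08, adjusted p = 0.0158), F13a1 (1.56, 0.0126) and Ms4a4c (1.14, 0.0414). The other 5 did not pass and lay on both sides of 0, with Ifi204 at 0.64 (0.0583), Fn1 at 0.61 (0.138), Vcan at -0.68 (0.292), Ly6c2 at -0.69 (0.265) and Plac8 at -1.13 (0.0907). Of 5 border-associated macrophage markers 2 were higher, Cbr2 (3.39, 0.00131) and Ms4a7 (2.08, 0.000258), and Lyve1 was lower (-0.87, 0.0113). Mrc1 (0.18, 0.849) and Cd163 (-0.36, 0.406) did not pass. Lyve1 averaged 6.01 in WT and 5.14 in KO neutrophils, below 6.69, the median of the mean levels of all rows. Of 9 neutrophil markers 2 passed, both lower, Mmp8 (-2.10, 0.00285) and Retnlg (-1.98, 0.0451). The others did not pass (adjusted p = 0.0858 to 0.822) but also lay below 0, from -1.01 for Ltf to -0.45 for Csf3r. List means were 13.84 to 16.37 in WT and 13.04 to 14.17 in KO. None of the 9 microglia markers passed, and their mean was 8.08 to 9.61 on WT and 7.86 to 9.96 on KO neutrophil arrays. All 9 were lower in WT neutrophils than in WT microglia, with differences from -7.43 for Slc2a5 (5.41 against 12.84) to -2.89 for Sparc (14.35 against 17.24). Of 4 platelet markers, which matter because platelets carry P2Y12, Gp9 was lower (-0.59, 0.0213). The others did not pass and lay on both sides of 0, with Pf4 at 0.64 (0.486), Itga2b at -0.25 (0.533) and Ppbp at -1.12 (0.246). The list averaged 9.97 to 11.63 on WT and 9.86 to 11.23 on KO neutrophil arrays. The part of these markers in the member results was not tested, and in sorted bulk samples fewer cells of a type and less RNA per cell cannot be told apart.

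**Figure D3:**
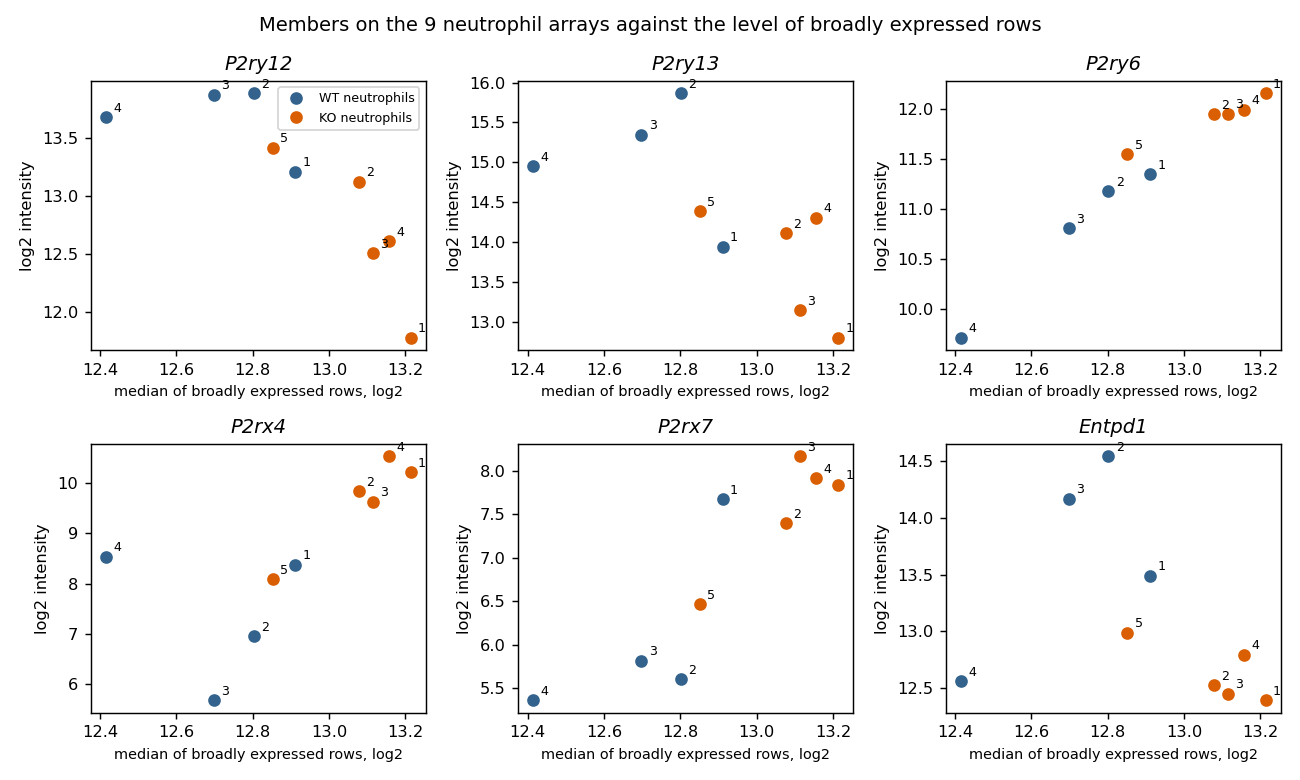
Each panel plots 1 gene on the 9 neutrophil arrays, log2 intensity against the median of the 2015 broadly expressed rows on that array; numbers are replicate numbers. WT neutrophil 4 has the lowest median, 12.42, and KO neutrophil 5, at 12.85, lies among the WT arrays and is the lowest KO array for P2ry6, P2rx4 and P2rx7.

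In macrophages none of the 6 measured members passed (limma), and 1 had an unadjusted p under 0.05, where 0.00452% of rows passed and 1029 had an unadjusted p under 0.05. That gene was P2ry6, 0.51 higher in KO (95% interval 0.00 to 1.03, unadjusted p = 0.0495, adjusted p = 0.998), with all 6 KO arrays above the WT mean. P2rx4 differed by -0.49 (-1.61 to 0.63), P2ry13 by -0.32 (-1.17 to 0.53), P2ry12 by -0.23 (-0.82 to 0.36), P2rx7 by -0.14 (-0.89 to 0.61) and Entpd1 by -0.06 (-1.12 to 1.01). With 3 WT arrays these intervals still hold changes of 1 log2 unit for several genes.

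In microglia none of the 6 passed, none had an unadjusted p under 0.05, and 0% of rows passed, with 646 rows at an unadjusted p under 0.05. P2ry12 differed by -0.02 (95% interval -0.51 to 0.46), P2ry6 by -0.03 (-0.45 to 0.39) and P2rx4 by -0.04 (-0.96 to 0.88). P2ry13 differed by 0.11 (-0.59 to 0.80), Entpd1 by 0.16 (-0.71 to 1.03) and P2rx7 by 0.18 (-0.43 to 0.79). The intervals leave out a doubling or halving for each gene except Entpd1, where they reach 1.03.

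The change with genotype was then compared between cell types. P2rx4 changed more in neutrophils than in microglia by 2.32 (SE 0.69, adjusted p = 0.0408) and than in macrophages by 2.77 (SE 0.76, adjusted p = 0.0264). For P2ry6 the change was larger in neutrophils than in microglia by 1.19 (SE 0.31, adjusted p = 0.0223), and its difference from macrophages, 0.64, did not pass (adjusted p = 0.244). These are 2 of 6 members against 5.79% of rows, and 1 of 6 against 6.87%. The P2rx4 and P2rx7 values include low WT neutrophil levels, for which background was not used. P2rx7 did not pass against microglia (1.27, adjusted p = 0.0933) or macrophages (1.59, 0.0528). Nor did P2ry13 (-1.38, 0.106, and -0.96, 0.299), P2ry12 (-0.95, 0.110, and -0.75, 0.242) or Entpd1 (adjusted p = 0.264 and 0.388). Between macrophages and microglia no member passed (0% of rows), with differences from -0.45 to 0.55. The comparisons share the neutrophil arrays, and their calls changed with single arrays: without KO neutrophil 1 the values were 1.13, 2.19 and 2.64 (adjusted p = 0.0515, 0.0868 and 0.0539), and none passed. With each array left out in turn, P2ry6 against microglia kept its call in 19 of 21 fits (adjusted p up to 0.0569), P2rx4 against microglia in 9 of 21 (up to 0.112) and P2rx4 against macrophages in 13 of 18 (up to 0.0694).

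**Figure D4:**
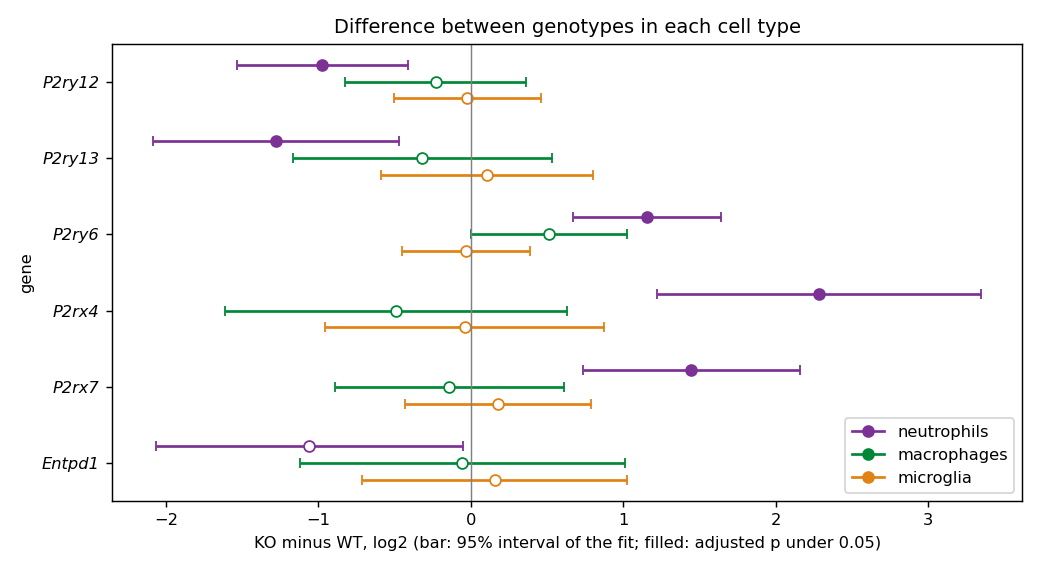
Difference between KO and WT in log2 units (horizontal axis) for each of the 6 measured genes (vertical axis) in neutrophils, macrophages and microglia; points are fitted differences, bars 95% intervals, and filled points have an adjusted p under 0.05. The filled points are all of neutrophils, from -1.28 for P2ry13 to 2.28 for P2rx4.

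Of 63 other genes of nucleotide and adenosine signalling, 58 were measured, and 8 were higher and 5 lower in KO than in WT neutrophils, with 45 not passing, where 10.7% of all rows were higher and 9.14% lower, so the share called was near that of all rows. Their median difference was -0.10 against -0.13 over all rows. Among 9 other genes with P2 receptor names, P2ry1, P2ry2, P2ry4, P2ry10, P2rx1, P2rx2, P2rx3, P2rx5 and P2rx6, none passed. Of 6 genes of nucleotide release, Panx1, a channel through which ATP leaves cells, rose by 1.94 (SE 0.55, adjusted p = 0.0132).

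Among 16 other enzymes, 2 were higher and 4 lower. Entpd3, a surface ectonucleotidase, fell by 1.10 (SE 0.27, adjusted p = 0.00449), and Nt5e, or CD73, which makes adenosine from AMP, fell by 1.21 (SE 0.32, adjusted p = 0.00811). Alpl, a phosphatase, fell by 0.63 (0.0442) and the AMP deaminase Ampd3 by 0.83 (0.0332). Entpd7, an intracellular member of the Entpd1 family, rose by 1.10 (SE 0.29, adjusted p = 0.00879) and the AMP deaminase Ampd2 by 1.10 (0.0453). Of the 5 nucleoside transporters, Slc29a3, of lysosomes, rose by 1.32 (SE 0.33, adjusted p = 0.00622) and Slc28a3, of the cell surface, fell by 0.67 (SE 0.18, adjusted p = 0.0104). Slc28a3 averaged 6.52 in WT and 5.84 in KO neutrophils, and Alpl 5.83 and 5.20. All lie below 6.69, the median of the mean levels of all rows. Background was not used here, so how much of these levels is signal of the gene is not known.

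Of 13 genes of G protein and cyclic AMP signalling, Adcy7, an adenylate cyclase, rose by 0.58 (adjusted p = 0.0273) and Rgs1, which ends G protein signals, by 0.66 (0.0318). Of 9 genes for P2X7 outputs and potassium channels, Casp1, the protease of the inflammasome, rose by 0.89 (SE 0.25, adjusted p = 0.0120) and the potassium channel Kcnk6 by 1.43 (0.0485), while Il1b differed by -0.38 (0.549). In macrophages and in microglia 0 of the 58 passed (limma). The genotype changes of Entpd3, Slc29a3 and Slc28a3 differed between neutrophils and microglia (-1.17, adjusted p = 0.0435, 1.48, 0.0421, and -0.86, 0.0318). Of the 58 genes 55 did not pass there, where 5.79% of all rows passed. The genotype changes of Panx1 and Nt5e differed between neutrophils and macrophages (2.62, 0.0439, and -1.53, 0.0416). There 56 did not pass, where 6.87% of all rows passed, so neither share called exceeded that of all rows.

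Between WT neutrophils and WT microglia 15 of the 58 genes were higher, 25 lower and 18 not called, where 22% of all rows were higher and 32.3% lower. Il1b, an interleukin-1 gene, was higher by 8.37 (SE 0.41), Entpd3 by 7.79 (SE 0.26) and Ampd3 by 5.26 (SE 0.27), with limma adjusted p from 4.46e-20 to 6.93e-16. Pde3b, a cyclic nucleotide phosphodiesterase, was lower by 4.48 (log2 -4.48, adjusted p = 1.22e-12), Ahcy, which splits S-adenosylhomocysteine into adenosine and homocysteine, by 2.47 (-2.47, 2.24e-10) and Adcy7 by 1.89 (-1.89, 4.64e-10). The neutrophils with the lowest P2rx7 and P2rx4 levels of the cell types had more Il1b RNA than microglia. Such RNA levels do not measure release of interleukin-1.

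Between WT macrophages and WT microglia 11 were higher, 18 lower and 29 not called, where 37.5% of all rows passed and 27.9% were lower. Il1b was higher by 6.03 (SE 0.45, adjusted p = 6.01e-12), the nucleoside transporter Slc28a2 by 4.57 (SE 0.44, adjusted p = 1.26e-09) and P2ry10, a receptor related to the P2Y family, by 3.71 (SE 0.33, adjusted p = 2.42e-10). The adenylate cyclase Adcy3 was lower (-5.56, SE 0.45, adjusted p = 4.23e-11), as were Pde3b (-2.82, 1.61e-07) and the ATP-gated channel P2rx1 (-2.20, 3.18e-07). With the ADP receptors and P2rx7, P2rx1 was thus among the receptors lower in macrophages than in microglia.

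Members also varied among the 12 microglia arrays, on which both genotypes overlapped for each member. P2ry12 correlated with P2ry13 (r = 0.888, rho = 0.895, permutation p adjusted over 15 pairs of members 0.00113 and 0.00203) and with Entpd1 (r = 0.909, rho = 0.909, permutation p = 0.0009 and 0.00165 adjusted), as did P2ry13 with Entpd1 (r = 0.831, rho = 0.846, permutation p = 0.0045 and 0.0043 adjusted). Raw two-sided permutation p-values from 100000 permutations were 0.00015 and 0.00027, 6e-05 and 0.00011, and 0.0009 and 0.00086. Without the 2 arrays farthest from the median of the first gene, r was 0.778, 0.812 and 0.877. Within genotypes it was 0.853, 0.869 and 0.722 over the 6 WT arrays and 0.950, 0.974 and 0.971 over the 6 KO arrays. No other pair passed, the nearest being P2rx4 with P2rx7 (r = 0.612, rho = 0.608, permutation p = 0.036 and 0.041, adjusted 0.135 and 0.154).

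The same 3 genes followed the mean of 9 microglia markers over these arrays, in 24 relations computed. The values were r = 0.907 and rho = 0.902 for P2ry12 (permutation p = 0.0001 and 0.00016, adjusted 0.0012 and 0.00192), r = 0.886 and rho = 0.853 for P2ry13 (permutation p = 0.0002 and 0.00079, adjusted 0.0016 and 0.00632), and r = 0.921 and rho = 0.916 for Entpd1 (permutation p = 4e-05 and 0.00014, adjusted 0.00096 and 0.00192). Without the 2 farthest arrays r was 0.817, 0.806 and 0.839. Within WT and KO arrays it was 0.992 and 0.858 for P2ry12, 0.887 and 0.904 for P2ry13, and 0.901 and 0.943 for Entpd1. The remaining relations were with the neutrophil markers, the median of the broadly expressed rows and the median intensity, and none passed. Nearest was P2rx4 with the broadly expressed rows (r = 0.675, rho = 0.643, permutation p = 0.0178 and 0.0283, adjusted 0.107 and 0.17). With the mean of the microglia markers the other 3 members gave r from -0.01 to 0.36 and did not pass. The part of this measure in the pairs of members was not tested.

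**Figure D5:**
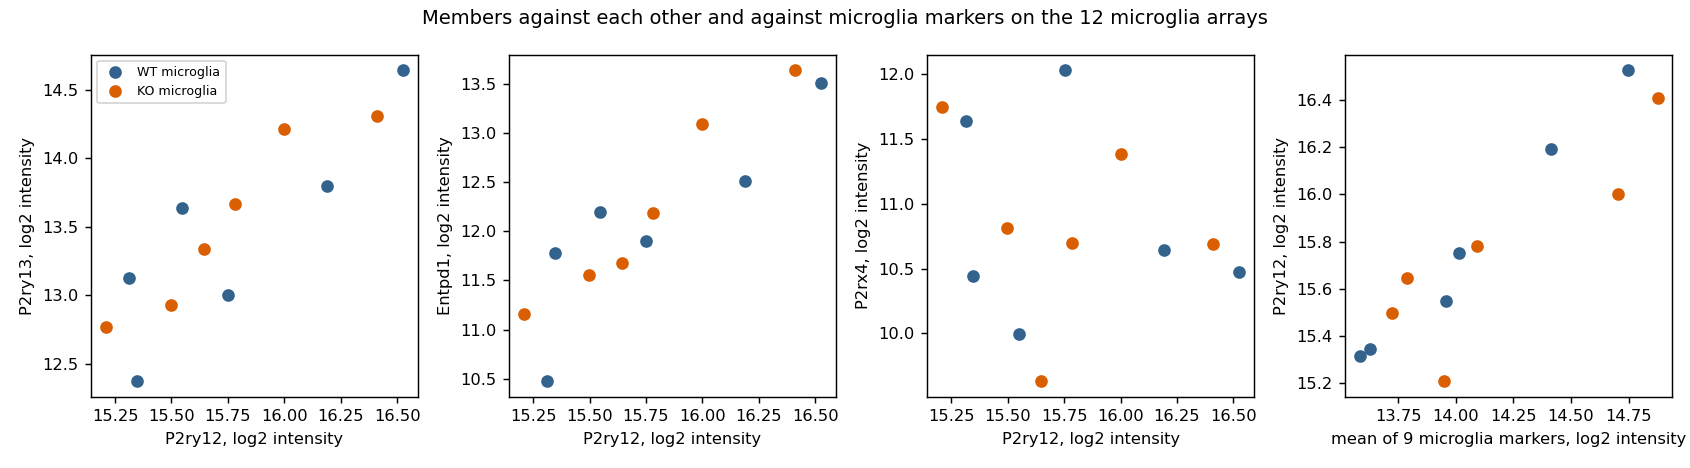
Points are the 12 microglia arrays, 6 WT and 6 KO, with log2 intensities on both axes: P2ry13, Entpd1 and P2rx4 against P2ry12, and P2ry12 against the mean of 9 microglia markers. P2ry13 and Entpd1 follow P2ry12 (r = 0.888 and 0.909), while P2rx4 does not (r = -0.21).

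Over all 30 arrays, where most of the variation lies between cell types, the genes most like each member by Pearson r were named as a description. They were Sall1 and Sall3 for P2ry12 (both 0.96), St3gal6 (0.96) and Numb (0.94) for P2ry13, and Smarcb1 and Erap1 for P2ry6 (both 0.97). They were Prdx2 and Rps4x for P2rx4 (both 0.93), Camk1 and Atraid for P2rx7 (both 0.96), and Vsir (0.82) and Map3k3 (0.73) for Entpd1. Members themselves correlated from -0.60 for P2ry13 with P2rx4 to 0.80 for P2ry6 with P2rx7. These points share the cell type and the array, so they are not independent.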

How the data were processed

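RNA levels were read on mouse Clariom HT arrays of Affymetrix, from 0.6 to 0.8 ng of RNA with an integrity number above 7.5, per the labels. The deposited intensity values were made by the authors with RMA, per the submitters' processing notes, a method that subtracts background, brings arrays to a common scale and gives probes of a gene 1 value. The version used, and the arrays scaled together, are not given in the sources used here, and a common scale over such different cells can shift levels. Signal over background per array was not used here and precision is limited by how many arrays there were.

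From the deposited linear intensities log2 values were computed, with no pseudocount and no filter, so all 22103 rows entered. Symbols came from the platform annotation, 19508 rows having 1 symbol and 2595 none, and positions and promoters from RefSeq GRCm38.p6. A linear model of 6 group means over the 30 arrays came from limma 3.58.1 (R 4.3.3, 24 residual degrees of freedom, moderated test, two-sided). The threshold was 0.05 for the p adjusted by Benjamini-Hochberg over all rows of a comparison, and intervals are unadjusted 95% intervals of that fit. All p-values of single genes in comparisons are from it, and the fit was tested on simulated data.

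The members and gene lists were chosen with earlier results of these data known. Named were all measured members, up to 3 other pathway genes per direction with the smallest p in 5 comparisons, Trem1, and the 2 genes most like each member. Further pathway genes were named after their values were seen, to give the full set called in neutrophils. Correlations among microglia arrays used permutation tests in Python 3.11.15 (numpy 2.4.6), and figures were drawn with matplotlib 3.10.9. Alternatives were other scalings, weights per array, a robust prior with a variance trend, the dimmest 25% of rows left out, 1 row per gene, only the arrays compared, a replicate block, the broadly expressed rows as a covariate, and each array left out.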

Additional observations from a re-analysis of the deposited data

Results flagged for a closer look

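The change with genotype differed between cell types in 3 tests of the difference itself. For P2ry6 it was 1.19 larger in neutrophils than in microglia (limma adjusted p = 0.0223), with adjusted p from 0.00476 to 0.0569 when each array was left out. For P2rx4 it was 2.32 larger than in microglia (adjusted p = 0.0408), with 0.00901 to 0.112 over the same refits. For P2rx4 it was 2.77 larger than in macrophages (adjusted p = 0.0264), with 0.00658 to 0.0694.

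A single array lay far from the others of its group by the Dixon test in 2 of 30 tests of a member in a group of 4 to 6 arrays, where chance flags about 1 in 20. P2ry12 was at 12.75 on KO macrophage 2, against 11.98 to 12.21 on the other 5 arrays. P2ry6 was at 12.75 on WT microglia 4, against 13.38 to 13.74 on the other 5.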

How the results depend on the processing

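Settings changed 1 choice at a time, except that 1 fitted only the neutrophil arrays and also left out WT neutrophil 4, and in none of them did a called difference of a member change sign. Over all settings 1524 values of single members kept their call and direction, 59 calls were lost, 21 were gained and 40 values that passed in neither fit changed sign. The count of members called between KO and WT neutrophils, 5, was 0 in the fit on only the arrays compared (1084 rows called against 4390), 0 with the broadly expressed rows as a covariate (474 rows) and 2 on the neutrophil arrays without WT neutrophil 4 (977 rows), where P2ry6 and Entpd1 (-1.44, adjusted p = 0.0248) passed. The main fit shares the spread of a gene over all groups, and the fit on only the arrays compared takes it from those arrays. All comparisons of cell types within a genotype kept their counts of members in that fit. The cause of the lower counts between KO and WT neutrophils was not tested, and the covariate nearly followed genotype on the neutrophil arrays. For the genotype change in neutrophils minus microglia the count, 2, was 1 with quantile normalization over all arrays, 1 with quantile normalization within cell types and 0 on only the arrays compared (821 rows against 1280). For neutrophils minus macrophages the count, 1, was 2 with median centring, 2 with array weights, 2 without the dimmest 25% of rows and 0 on only the arrays compared (631 rows against 1518), P2rx7 being the gene gained. The 1 row called between KO and WT macrophages became 9 on only the arrays compared and 3 with the covariate. Leaving out KO microglia 2 with 4, no count of members moved by over 1.5 times.

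With each array left out in turn, the count was 3 to 5 between KO and WT neutrophils (2883 to 5557 rows), 0 to 4 for neutrophils minus microglia (724 to 2611 rows) and 0 to 2 for neutrophils minus macrophages (786 to 2790 rows). The low ends, 3, 0 and 0, came without KO neutrophil 1, and the last also without WT neutrophil 3, KO neutrophil 4, WT macrophage 2 or WT macrophage 3. The high ends of the last 2 came without WT neutrophil 1 and without KO neutrophil 5. The count was 3 to 4 for WT macrophages against microglia, 5 to 6 for WT neutrophils against macrophages, 3 to 4 for KO neutrophils against microglia and 2 to 4 for KO neutrophils against macrophages.

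Median centring moved the split of called rows. It made 2811 of 3928 higher in KO neutrophils against 2370 of 4390, 6638 of 12857 higher in WT neutrophils than microglia against 4873 of 12007, 4835 of 7276 in WT macrophages than microglia against 2126 of 8285, and 3938 of 10187 in WT neutrophils than macrophages against 6550 of 11402. In KO cells the same splits were 5280 of 9601 against 2867 of 9949, 6109 of 9322 against 2619 of 9565, and 2762 of 7155 against 3513 of 7008. Under quantile normalization over all arrays they were 6325 of 12252, 3140 of 6320 and 4866 of 9471 in WT and 4489 of 9143 and 4191 of 8254 for KO neutrophils and macrophages against microglia.

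Deviations of samples with the same replicate number correlated weakly (-0.202 to 0.261 over the pairs of groups compared, and in no pair of groups were all over 0.1). These correlations cannot tell whether such samples came from the same animals, and the main fit treats all samples as independent. A replicate block left the counts of members called at 5, 0 and 0 in neutrophils, macrophages and microglia. It added P2ry6 between WT macrophages and microglia (-0.66, adjusted p = 0.0377) and P2rx7 in neutrophils minus microglia (1.41, adjusted p = 0.0465). In no pair of groups did every sample correlate best with its own number: 1 of 4 WT neutrophil samples did with KO neutrophils, and the highest share was 3 of 5, for KO microglia with KO neutrophils (2 of 5 in reverse).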
